A study of Mus musculus with 24 samples.

Results

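The step from colony forming unit erythroid cells (CFUE) to erythroblasts (ERY) was described from the accessible elements of both populations in adult mouse bone marrow. A population was called at an element where both of its ATAC-seq libraries had a peak, and an element was then kept (called in ERY and CFUE), gained (called in ERY and not in CFUE) or lost (called in CFUE and not in ERY). This gave 49572 elements called in ERY or CFUE, of 207525 elements called in any of the 12 hematopoietic populations of the series. The rule uses the presence of peaks in these 4 lists, so the numbers kept, gained and lost describe the lists. The sequence of the elements was not used by it. Of the signal, it used only that a kept element was high enough for a peak in all 4 lists. Elements that missed a peak in any of them are therefore outside the comparison of signal.

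ERY and CFUE cells were sorted from bone marrow of C57BL6 mice with no genetic change or treatment. Both gates took cells that lacked lineage markers of other blood cells and carried Ter119 and CD44, and per the study's methods they differed in forward scatter, low for ERY and high for CFUE. The populations are therefore the smaller and the larger cells of one marker gate, and a difference between them is a difference between sorted size classes. Each population had 2 libraries, made either from 1 sort split into aliquots or from separate groups of mice, and which of these holds here is not given. The p-values measure the spread between these libraries only, except those for the number of peaks per gene. The latter come from a fit over all 24 libraries of the series, so they also rest on the spread between replicates of the other populations.

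CFUE are committed progenitors that still divide rapidly, and erythroblasts fill with hemoglobin, stop dividing, condense and expel the nucleus and clear their mitochondria. GATA1, with TAL1 and LMO2, KLF1 and NF-E2 are the transcription factors best known for opening and driving the globin, heme and red cell membrane genes. Accessible DNA away from promoters marks candidate enhancers and insulators, and the height of an ATAC-seq peak reflects how often the site was cut in the sorted cells.

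The lists held 107690 and 97760 peaks in ERY and 133674 and 99390 in CFUE, each peak at most 150 bp wide. Neither this number nor the promoter share, the covered length or the median signal separated the populations (exact permutation test, two-sided, p = 0.667 for each, where 2 against 2 cannot go below 0.33). Relative depth, read from the value of 1 read in each list, was 78.6% and 69.1% of the deepest library of the series in ERY and 81.0% and 68.8% in CFUE. CFUE replicate 1 stood apart with the most peaks and the lowest median signal, 4.06, against 5.58 and 6.88 in ERY and 6.24 in CFUE replicate 2. The promoters of 93.8% or more of the genes on the heme, iron, red cell membrane, red cell metabolism and erythroid regulator lists were open in ERY and in CFUE. So were 6 of 10 globin promoters in both, and 83.3% in ERY and 87.5% in CFUE of the nuclear condensation and enucleation list. Housekeeping genes reached 100% and cell cycle genes 92.6% in both, so these shares are not particular to erythroid lists. They also do not tell the labels ERY and CFUE apart. On the progenitor and GATA1-repressed list, 8 of 27 promoters were open in ERY and 11 of 27 in CFUE. At most 2 of 18 granulocyte, 2 of 21 macrophage and monocyte, 2 of 18 T and NK cell, 3 of 12 B cell and 1 of 12 mast cell, basophil and eosinophil genes had an open promoter in either population, and 7 of 19 megakaryocyte genes did in both.

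The sequences of 12 peaks are printed to show the motifs on which the comparison of distal elements turned. They were picked from the elements that moved most on this step and are not in rank order. All are read from mm10 on the plus strand, 5′ to 3′, and capitals mark matches, on either strand, to the words searched: GATA (the letters AGATAA or TGATAA), TAL1-GATA (CTG, a gap of 7 or 8 bases, then a GATA word), KLF (CCACACCC, CCCCACCC, CCACGCCC or CCCCGCCC) and NF-E2 (TGAGTCA). Every TAL1-GATA match contains a GATA match. The first 4 lie in kept elements with higher signal in ERY. They are an intron of St3gal5 at chr6:72099510-72099659, which holds none of these words, and an intron of Mafk at chr5:139794978-139795127. Then come a site between genes near Cox4i2 and Bcl2l1 at chr2:152769841-152769990, and an intron of Xpo7 at chr14:70767599-70767748. Among the other leading rises, a GATA word is in the peaks of Tmem131l and Ap3b1, the latter with an NF-E2 word. A KLF word is in those of Sugp2 and Ubb, and none of the words in those of Ccndbp1 and Tmcc2.
St3gal5, higher: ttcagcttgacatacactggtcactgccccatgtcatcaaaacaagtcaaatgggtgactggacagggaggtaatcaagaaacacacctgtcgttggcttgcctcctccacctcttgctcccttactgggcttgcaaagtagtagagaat
Mafk, higher: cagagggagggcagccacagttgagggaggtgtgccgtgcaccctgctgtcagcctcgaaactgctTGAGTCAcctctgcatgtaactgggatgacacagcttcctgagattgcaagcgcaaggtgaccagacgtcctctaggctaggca
Cox4i2 and Bcl2l1, higher: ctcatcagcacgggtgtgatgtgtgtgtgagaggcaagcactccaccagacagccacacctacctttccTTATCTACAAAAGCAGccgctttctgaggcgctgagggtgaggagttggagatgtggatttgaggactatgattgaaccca
Xpo7, higher: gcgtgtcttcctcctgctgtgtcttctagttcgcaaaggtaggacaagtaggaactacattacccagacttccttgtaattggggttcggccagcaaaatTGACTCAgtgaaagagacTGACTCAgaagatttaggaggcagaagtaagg
The next 4 lie in kept elements with lower signal in ERY and were picked to show a GATA word, which is in 7 of the 9 leading falls whose sequence was read and not in those of Gm5148 and Bcl11a: an intron of Vps50 at chr6:3565796-3565945, a site far from genes whose nearest gene is Dmac1 at chr4:75042315-75042464, an intron of Tmod3 at chr9:75527535-75527684 and an intron of Ikzf1 at chr11:11733299-11733448.
Vps50, lower: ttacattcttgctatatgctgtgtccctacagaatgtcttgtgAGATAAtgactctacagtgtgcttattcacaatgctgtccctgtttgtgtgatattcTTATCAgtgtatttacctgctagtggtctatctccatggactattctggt
Dmac1, lower: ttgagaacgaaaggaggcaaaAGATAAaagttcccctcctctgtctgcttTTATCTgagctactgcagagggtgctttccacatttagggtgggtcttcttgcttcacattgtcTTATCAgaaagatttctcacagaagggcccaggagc
Tmod3, lower: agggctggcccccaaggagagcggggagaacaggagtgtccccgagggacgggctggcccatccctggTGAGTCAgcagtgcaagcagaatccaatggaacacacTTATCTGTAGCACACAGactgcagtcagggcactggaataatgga
Ikzf1, lower: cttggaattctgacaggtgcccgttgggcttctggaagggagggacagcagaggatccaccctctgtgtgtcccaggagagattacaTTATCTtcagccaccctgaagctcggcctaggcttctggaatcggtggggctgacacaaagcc
The last 4 lie in elements with a peak in both libraries of one population and neither library of the other. The gained elements are in an intron of Blvrb at chr7:27454582-27454731 and between genes near Slc4a1 at chr11:102374206-102374355. The lost elements are in an intron with Rita1 as the nearest gene at chr5:120599755-120599904 and between genes near Hbb-bt at chr7:103809082-103809231. Both gained elements printed hold a KLF word. Among the other leading gains, a KLF word is in the peaks of Tcf3 and of Tmcc2 at chr1:132357481-132357630. It is not in those of Ubap1, Sept1 and the remaining Tmcc2 gains. Both lost elements printed hold a GATA word. Among the other leading losses, a GATA word is in the peaks near Gm49369 and Mkrn1. It is not in those of Fbrs, Midn, Tsks, Per1, Tcf3, Ghrhr, Lyl1 and the neighbouring Hbb-bt element.
Blvrb, gained: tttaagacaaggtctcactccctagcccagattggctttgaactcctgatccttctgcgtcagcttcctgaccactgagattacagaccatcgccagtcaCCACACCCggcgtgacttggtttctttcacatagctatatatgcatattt
Slc4a1, gained: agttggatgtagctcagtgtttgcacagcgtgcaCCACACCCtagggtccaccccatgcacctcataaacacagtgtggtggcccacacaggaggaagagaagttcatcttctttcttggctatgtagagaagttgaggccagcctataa
Rita1, lost: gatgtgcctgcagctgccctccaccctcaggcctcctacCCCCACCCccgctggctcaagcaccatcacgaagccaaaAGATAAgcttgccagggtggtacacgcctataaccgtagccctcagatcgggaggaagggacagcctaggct
Hbb-bt, lost: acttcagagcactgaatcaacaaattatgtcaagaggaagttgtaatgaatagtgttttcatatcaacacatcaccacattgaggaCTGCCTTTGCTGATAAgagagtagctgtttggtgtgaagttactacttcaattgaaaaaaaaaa

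Most elements were shared by the populations. ERY had 41536 elements and CFUE 40972, and 32936 were kept, which is 79.3% of the ERY and 80.4% of the CFUE elements. Another 8600 were gained and 8036 lost. Of these, 22.8% of the gained and 31.8% of the lost lay within 500 bp of a kept element. At promoters the shares were 54.0% and 57.6%, and at distal sites 14.5% and 20.2%. Whether these are new sites or parts of the kept ones was not tested. Promoter elements, with their centre within 1 kb of an annotated transcript start, were kept more often: 90.3% of those in ERY and 87.2% of those in CFUE, against 70.1% and 74.2% of distal elements. Promoters made up 51.7% of the kept elements, 21.2% of the gained and 31.2% of the lost. Gains thus comprised 6773 distal and 1827 promoter elements, and losses 5531 distal and 2505 promoter elements. These shares depend on calling from both libraries. Where ERY was called from 1 library alone, the gains numbered 32267 without ERY replicate 1 and 41893 without ERY replicate 2, and where CFUE was called from 1 library alone, the losses numbered 34778 without CFUE replicate 1 and 62422 without CFUE replicate 2.

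**Figure D1:**
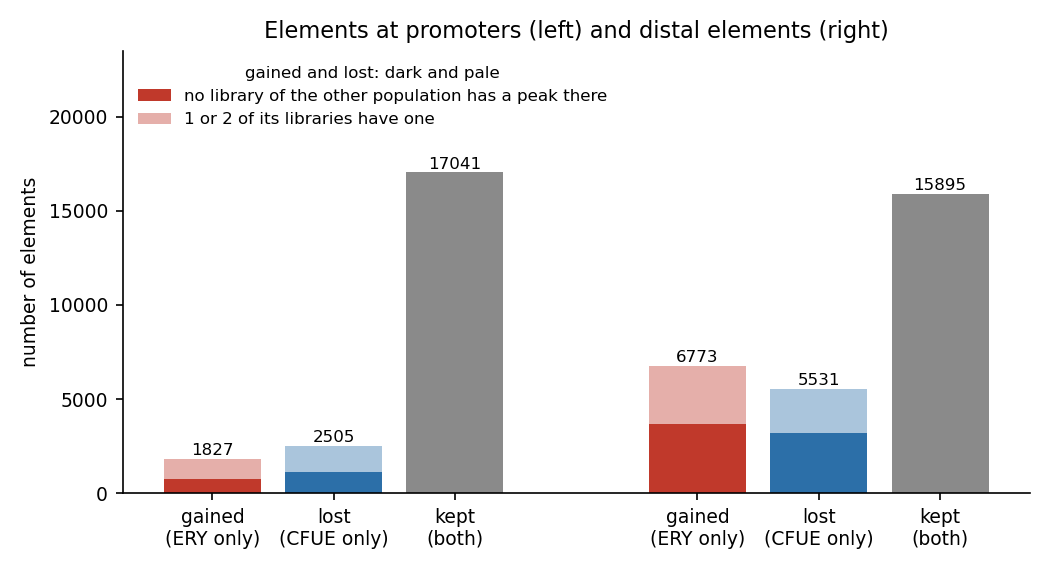
Number of elements (y axis) gained, lost and kept between ERY and CFUE, at promoters on the left and at distal sites on the right; dark parts of the bars are elements without a peak in either library of the other population, pale parts those with a peak in 1 or 2 of them. Kept elements number 17041 at promoters and 15895 at distal sites, while the gained and lost elements are mostly distal.

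Most gained and lost elements were weak, and nearly as many had some peak in the other population as had none. Of the 8600 gained elements, 4395 (51.1%) had no peak in either CFUE library, 4044 (47.0%) had one in 1 library, and 161 (1.87%) had peaks in both CFUE libraries that did not overlap each other. Of the 8036 lost elements, 4308 (53.6%) had no peak in either ERY library, 3576 (44.5%) had one in 1 library and 152 (1.89%) in both. The median signal of elements gained without any CFUE peak was 3.72 and 3.70 in the ERY libraries, and that of elements lost without any ERY peak 3.61 and 3.85 in the CFUE libraries. Kept elements had a median of 19.6 and 19.2 in ERY and 20 and 17.3 in CFUE. Most gains and losses were thus of low peaks. Over all 4 lists merged, 40094 of 194992 regions had a peak in every list, 5052 in both ERY lists alone and 5113 in both CFUE lists alone, while pairs made of 1 list from each population numbered 1429 to 2747.

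A few gained and lost elements were strong. The highest distal gain without a CFUE peak was in an intron of Blvrb (chr7:27454582-27454735), biliverdin reductase B, an abundant red cell enzyme, with a signal of 57.3 and 62.7 in the ERY libraries. Next came an intergenic element near Slc4a1 (chr11:102374201-102374355), the anion exchanger band 3 of the red cell membrane, with 57.3 and 60. It lay 8075 bp from a transcript start of Slc4a1 and 924 bp from a kept element. Both gains are among the sequences printed and hold a KLF word. Repeats covered 48.7% of the printed Blvrb peak and 43.3% of the printed Slc4a1 peak, which the lower case letters do not mark. Tmcc2, a gene of the red cell membrane list, had 3 such gains in its body, with signals of 53.0 and 51.4, 45.6 and 47.3, and 42.7 and 43.2. The other leading gains were in introns of Ubap1 (60.9 and 50.1), Sept1 (46.6 and 46.8) and Tcf3, an E protein partner of TAL1 (41.4 and 41.9). Of these 8 elements only the one in Ubap1 was called in another population, the lines G1E and G1E-ER4+E2.

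The highest distal loss without an ERY peak lay between genes near Fbrs (chr7:127477666-127477822), with 101.4 and 88.8 in the CFUE libraries, and it was 6 bp from an element that was kept. Next were elements near Midn (46.6 and 47.3), Rita1 (49.3 and 40.4), Tsks (46.7 and 39.2), Gm49369 (27.5 and 32.0) and in Per1, a circadian clock gene (35.3 and 31.1). In the windows of erythroid genes, the leading losses were near Tcf3 (28.5 and 29.3) and at 2 intergenic elements near Hbb-bt. The latter had 24.6 and 24 at chr7:103810400-103810639, and 25.0 and 21.1 at chr7:103808917-103809298. Others lay between Ghrhr and Aqp1 (31.1 and 22.2), near Mkrn1 (25.4 and 21.9) and near Lyl1 and Nfix (23.5 and 20.8). The element near Hbb-bt at chr7:103808917-103809298 was called in 5 other populations, including MEP, CFUMK and G1E, and the neighbouring one in none. The losses near Lyl1 and Nfix, in Per1 and near Tsks lay 47, 309 and 458 bp from a kept element.

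Gains and losses with all or no libraries were spread thinly over genes of the lists, where an element was assigned to a gene when it lay in the gene body or within 20 kb of it. Xpo7, an exportin that acts in nuclear maturation of erythroblasts, had the most distal ones, 4 gained and 5 lost beside 5 kept. Among regulators, Sox6, a repressor of embryonic globin genes, had 2 gained and 3 lost, Bcl11a, a fetal globin repressor, 2 and 1, Lmo2 2 and 0, and Nfix 0 and 2. Rb1 (4 gained, 3 lost) and Cdk6 (4 and 2) led the cell cycle list, Exoc6 (1 and 3) and Steap3, a ferrireductase (0 and 2), the iron list, and Epb41 (2 and 1), Dmtn (1 and 2) and Tmcc2 (3 and 0) the membrane list. Flt3 and Hhex, genes of early progenitors, had 4 gained and 0 lost each. The heme list had few, 1 gained at Blvrb and Cpox each and 1 lost at Abcb6 and Hmox2 each. In windows of all protein-coding genes there were 2858 such distal gains and 2411 such losses beside 13364 kept distal elements. The genes named are those with the most in their lists, so nothing particular to them is read from these counts.

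Accessibility within kept elements was compared by the deposited signal, a tag count scaled by the authors to a common total, taking the highest peak in each element and library. On the log2 scale the signal correlated across the 32936 elements with r = 0.984 between the ERY libraries, 0.980 between the CFUE libraries and 0.953 to 0.955 between populations, which is a description over elements that share libraries. The SD of the log2 difference was 0.30 for the ERY pair and 0.33 for the CFUE pair, against 0.49 to 0.51 for pairs across populations. After centring each library on its median, limma called 4400 elements higher in ERY (13.4%) and 3527 lower (10.7%), together 24.1%, at an adjusted p under 0.05. At distal elements 2453 were higher (15.4%) and 1729 lower (10.9%), and at promoters 1947 were higher (11.4%) and 1798 lower (10.6%). Changes of more than 2-fold were 589 higher and 388 lower, of which 485 and 246 were distal.

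Over all kept elements, the log2 difference between the libraries numbered 846 (ERY) and 845 (CFUE) correlated with that between 854 (ERY) and 853 (CFUE) with r = 0.61, a description over elements. The number of calls rests on the pooled estimate of the spread. Without ERY replicate 1 there were 2378 rises, and without ERY replicate 2 there were 2636 rises and 2059 falls, with the lone library assumed to vary like the other population. The calls also varied with the level of signal. In the top quintile of mean signal, 24.5% were higher in ERY and 10.0% lower, and after quantile normalisation of the libraries these shares were 15.0% and 15.7%, with 3772 rises and 3945 falls over all kept elements. A rise in a strong element is therefore given beside that count, and whether such a rise reflects the cells or the scaling was not tested.

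The globin genes, which encode the chains of hemoglobin, rose nearly as a block. Of 21 kept elements within their windows, 19 were higher in ERY and 0 lower, with a median log2 difference of 0.57, against 13.6% higher, 10.5% lower and a median of 0.04 over the 29943 kept elements in windows of all protein-coding genes. The 7 of these elements outside the top quintile of signal were all higher. After quantile normalisation 18 of the 21 were higher, and without the trend of variance with signal 6 were, against 1032 higher over all kept elements. At the alpha globin cluster on chromosome 11, the Hba-a1 promoter (chr11:32283149-32283671) had a signal of 202.3 and 191.1 in ERY, against 136.8 and 119.5 in CFUE (log2 difference 0.56 ± 0.09 SE, limma adjusted p = 9.1e-05). A neighbouring element at chr11:32284625-32284858 had 91.8 and 102.2 in ERY, against 42.6 and 38.6 in CFUE (1.2 ± 0.12, adjusted p = 1.7e-07). In an intron of Nprl3, the gene whose introns hold enhancers of the alpha globin genes, the element at chr11:32265088-32265439 had 118.2 and 103.3 in ERY, against 52.1 and 50.9 in CFUE (1.04 ± 0.12, adjusted p = 8.1e-07), and it holds a GATA and an NF-E2 word. In all, 10 of the 11 kept elements of the Hba-a1 window rose, and the groups did not overlap at any of those named.

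At the beta globin cluster on chromosome 7, all 6 kept elements of the Hbb-bs and Hbb-bt windows were higher in ERY. The Hbb-bs promoter (chr7:103827211-103828133) had 339.3 and 335.4 in ERY, against 260.9 and 220.8 in CFUE (log2 difference 0.43 ± 0.08, limma adjusted p = 2.5e-04), and the Hbb-bt promoter 262.4 and 246.1 in ERY, against 182.7 and 153.0 in CFUE (0.54). Farther upstream, beyond the embryonic gene Hbb-y, where the locus control region of the cluster lies, 3 elements rose by 0.57 to 0.67 and 1, at chr7:103859061-103859370, with all of the GATA, TAL1-GATA, KLF and NF-E2 words, did not pass (228.3 and 230.8 in ERY, 207.3 and 183.3 in CFUE, 0.18, adjusted p = 0.14). Hba-a1 and Hba-a2, and Hbb-bs and Hbb-bt, are near-identical copies and the alignment could place a read in either, so the signal at one copy is uncertain. The lost elements near Hbb-bt described above lay in the windows of Hbb-bs and Hbb-bt.

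The lists were chosen with earlier results of these data known, so a ranking of them is a description. After the globin genes, those of mitophagy, autophagy and terminal maturation had the next largest share of rises. Of 165 kept elements in their windows, 74 were higher in ERY (44.8%) and 5 lower (3.03%), with a median of 0.34 and 21 of 26 genes with at least 1 rise. Outside the top quintile of signal 34 of 103 were higher and 3 lower, and after quantile normalisation 66 were higher and 5 lower. Without a library in turn, 51 to 73 were higher and 1 to 4 lower. Without the trend of variance with signal, 19 were higher and 1 lower, against 1032 and 907 over all kept elements.

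At some of these genes most of the kept elements were higher. At Xpo7, 6 of 7 kept elements were higher: the promoter element at chr14:70707919-70708237 had 123.5 and 129.8 in ERY, against 43.8 and 45.3 in CFUE (1.45 ± 0.12, limma adjusted p = 3.6e-09), and the intron element among the sequences printed, with 2 NF-E2 words, 30.8 and 28.2 in ERY, against 8.69 and 9.56 in CFUE (1.63 ± 0.21). Mkrn1, which encodes an E3 ubiquitin ligase, had 6 of 6 higher, with its promoter at 172.6 and 169.1 in ERY, against 104.3 and 91.1 in CFUE (0.75), beside 3 distal elements in its window that were lost without an ERY peak. Chosen after their values were seen, further examples are Bcl2l1, the anti-apoptotic BCL-XL that late erythroblasts need, with 9 of 14 higher, Mxi1, a MAX partner that opposes MYC, with 6 of 9, Tent5c with 4 of 6, and Map1lc3b, which encodes the autophagosome protein LC3B, with 4 of 6. The Bcl2l1 window held the strongest of these: the element near Cox4i2 at chr2:152769751-152770065, printed with its TAL1-GATA word, had 85.1 and 84.9 in ERY, against 26.1 and 23.1 in CFUE (1.73 ± 0.14, adjusted p = 1.4e-09). An intron of Ulk1, the kinase that starts autophagy, with a FOXO word (TGTTTAC), had 97.2 and 97.2 in ERY, against 61.6 and 40 in CFUE (0.91 ± 0.13), while the promoter elements of its neighbours Ep400 and Pus1 did not pass. Bnip3l, the mitophagy receptor NIX, had 2 of 4 higher, all of them near its transcript starts. The stronger of the 2 had 107.6 and 94.8 in ERY, against 61.6 and 72.6 in CFUE (0.53 ± 0.13), while the strongest of the 4, at chr14:67008808-67009055, had 147.5 and 150.9 in ERY, against 144.6 and 107.3 in CFUE, and did not pass (0.20, limma adjusted p = 0.15). Pim1 had 2 higher and 1 lower of 5.

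Heme synthesis, iron, membrane, metabolism and regulator genes held both rises and falls. Of their kept elements, 26 of 119 (heme), 22 of 111 (iron), 49 of 228 (membrane), 34 of 156 (metabolism and antioxidants) and 54 of 259 (regulators) were higher in ERY, and 11, 15, 28, 16 and 32 were lower. Without the trend of variance with signal, 6, 4, 11, 4 and 11 were higher and 1, 0, 8, 1 and 7 lower. These are 19.8% to 21.9% higher, against 13.6% over all protein-coding genes, while housekeeping genes had 21 of 77 higher (27.3%) and 11 lower, so nothing particular to these lists is read from the shares. Epb41, which encodes the membrane skeleton protein 4.1R, had 9 of 10 kept elements higher, for example 150.2 and 139.5 in ERY, against 100.5 and 73.3 in CFUE (0.69 ± 0.11) in an intron at chr4:132060033-132060325. Tmcc2 had 5 higher and 1 lower of 8, with 91.1 and 88.6 in ERY, against 24.4 and 21.6 in CFUE (1.91 ± 0.14, limma adjusted p = 2.7e-10) at an element 8877 bp from a transcript start.

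Chosen after their values were seen, Slc4a1 had 5 of 7 higher, Cd47, the signal that restrains macrophages, 6 of 10, E2f2, a regulator that acts in cell cycle exit of erythroblasts, 8 of 9, and Alas2, the first enzyme of heme synthesis, 2 of 5, both in introns. Aqp1, the water channel of the red cell, went the other way with 7 of 9 kept elements lower. Its promoter had 47.2 and 35.3 in ERY, against 83.5 and 78.6 in CFUE (-1.05 ± 0.14, limma adjusted p = 5.1e-06), and none of its elements was higher. Cpox, a heme synthesis enzyme, had 3 of 8 lower, Steap3 3 of 6 and Ackr1, the Duffy receptor, 3 of 7, each with 0 higher.

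At the loci of the erythroid regulators, calls went in both directions. Lmo2, the bridge of the GATA1 and TAL1 complex, had 4 of 6 kept elements higher, with its promoter at 165.5 and 168.2 in ERY, against 109.6 and 80.5 in CFUE (0.77 ± 0.10, limma adjusted p = 8.2e-06). Mafk, the small MAF partner of NF-E2, had the second largest rise in an erythroid window, 117.8 and 129.2 in ERY, against 34.7 and 26.2 in CFUE (1.97 ± 0.13, adjusted p = 4.4e-11), at the intron printed with its NF-E2 word. Bcl11a had 6 of 13 lower and 0 higher, Ikzf1, which encodes Ikaros, 4 of 13 lower and 0 higher, and Sox6 6 lower and 3 higher of 23. The Ikzf1 intron among the sequences printed had 57.9 and 51.7 in ERY, against 111.1 and 108.2 in CFUE (-1.06 ± 0.12, adjusted p = 4.3e-07). By contrast, chosen after their values were seen, the Klf1 promoter had 90.2 and 93.9 in ERY, against 95.1 and 97.5 in CFUE (-0.13, adjusted p = 0.45), a Gata1 intron 77.4 and 81.0 in ERY, against 73.7 and 74.4 in CFUE (0.04, adjusted p = 0.86), and none of the 9 kept elements of Tal1 passed. Gata1 had 1 lower of 4, and the 2 higher of 8 in the Klf1 window lay at the promoter of its neighbour Dnase2a, the nuclease that degrades expelled nuclei.

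Nuclear condensation and enucleation genes had 10 higher and 13 lower of 100 kept elements, with a median of -0.01, and cell cycle genes 22 higher and 15 lower of 124. The progenitor and GATA1-repressed list had 8 higher and 8 lower of 71, with a median of -0.09. The largest fall in an erythroid window belonged to Tmod3, a tropomodulin of erythroblast actin, whose intron element at chr9:75527283-75527862 had 7.09 and 7.01 in ERY, against 21.9 and 17.5 in CFUE (-1.53 ± 0.23, limma adjusted p = 2.5e-05). The promoter of Lmnb1, a lamin of the nuclear envelope, had 24.5 and 29.5 in ERY, against 62.0 and 46.2 in CFUE (-1.05 ± 0.15). Cd44, the antigen on which the gate was set, had 2 of 5 kept elements lower, its promoter with 14.8 and 13.2 in ERY, against 25.3 and 19.8 in CFUE (-0.74 ± 0.20, adjusted p = 0.0071).

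The lists of other blood cells held few kept elements. Higher and lower were 10 and 7 of 57 for megakaryocytes, 2 and 3 of 28 for granulocytes, 4 and 2 of 30 for macrophages and monocytes, 3 and 3 of 24 for B cells, 7 and 1 of 29 for T and NK cells and 0 and 1 of 7 for mast cells, basophils and eosinophils. In bulk samples, fewer cells of a type and less open chromatin per cell cannot be told apart. The share of rises was 24.1% for T and NK cells and 17.5% for megakaryocytes, and at most 13.3% for the others, against 13.6% over all protein-coding genes. The part of other cells in the differences was not tested.

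**Figure D2:**
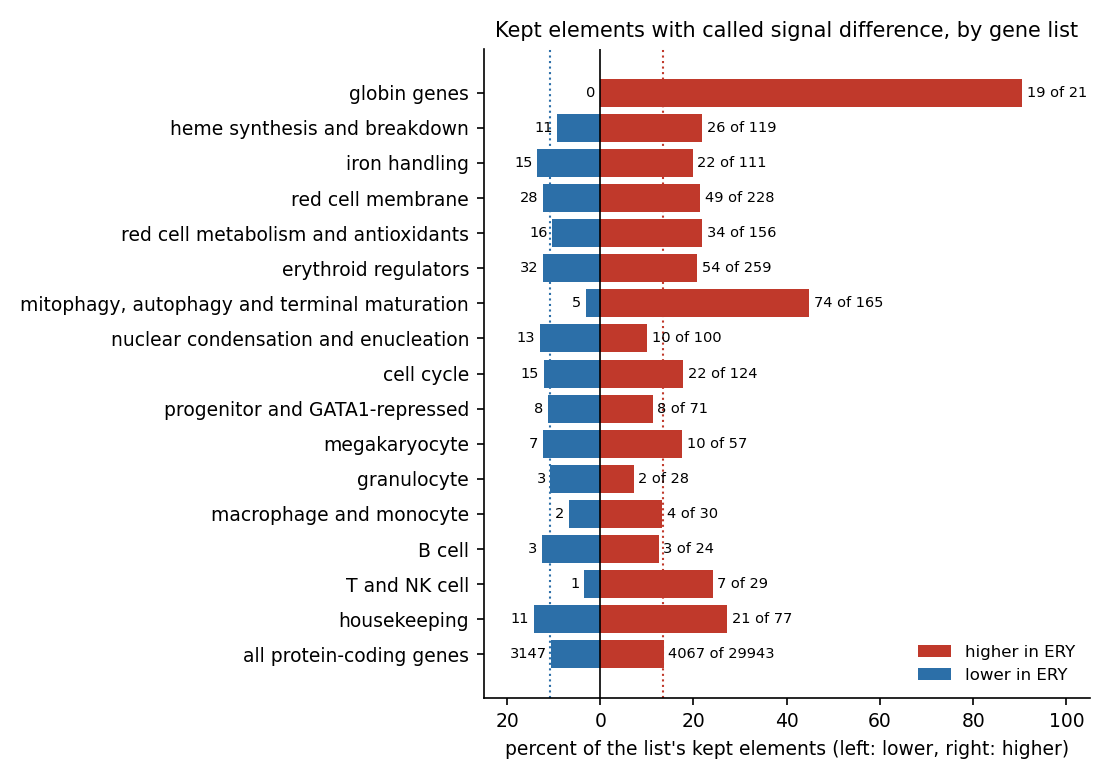
Percent of the kept elements in windows of each gene list whose signal was called higher (red, to the right) or lower (blue, to the left) in ERY relative to CFUE, with the numbers beside the bars. Dotted lines are the shares over all kept elements, 13.4% higher and 10.7% lower. Globin genes (19 of 21 higher) and mitophagy, autophagy and terminal maturation genes (74 of 165) reach farthest to the right; the list of mast cells, basophils and eosinophils, with 7 elements, is not drawn.

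The largest differences in single kept elements were not at erythroid lists. The intron element of St3gal5, the synthase of the ganglioside GM3, at chr6:72099401-72099665 had 118.0 and 119.0 in ERY, against 13.8 and 19.3 in CFUE (2.80 ± 0.17, limma adjusted p = 1.9e-11), and it was called in no population other than these. The next rises were the promoter of Sugp2 (50.5 and 37.3 in ERY, 7.11 and 6.37 in CFUE, 2.63), an intron of Tmem131l (80.7 and 84.9 in ERY, 12.4 and 14.3 in CFUE, 2.58), a site near Ap3b1 (18.1 and 13.9 in ERY, 2.59 and 2.52 in CFUE, 2.57) and a site near Ubb, a polyubiquitin gene (81.4 and 74.3 in ERY, 16.2 and 10.9 in CFUE, 2.49). All 5 kept elements of the Ubb window were higher. A promoter element of Ccndbp1 in the window of Epb42, the membrane protein 4.2 gene, had 39.6 and 37.4 in ERY, against 7.90 and 9.83 in CFUE (2.07).

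The 5 largest falls were smaller than the 5 largest rises and lay at weaker sites, which did not hold for falls as a class. Distal falls had a median signal of 20 and 19.2 in ERY, against 32.8 and 28.8 in CFUE, and distal rises 28.4 and 28.2 in ERY, against 16.6 and 14.7 in CFUE. The intron element of Vps50 at chr6:3565604-3566210 had 4.19 and 2.78 in ERY, against 12.6 and 13.8 in CFUE (-2.01 ± 0.29, limma adjusted p = 1.8e-05). Those nearest to Mllt3 (2.79 and 2.51 in ERY, 10.8 and 6.91 in CFUE), Gm5148 (3.49 and 2.91 in ERY, 9.48 and 11.3 in CFUE), Dmac1 (2.09 and 3.04 in ERY, 8.46 and 7.70 in CFUE) and Dync1i2 (2.79 and 3.97 in ERY, 10.9 and 10.4 in CFUE) fell by 1.77, 1.76, 1.74 and 1.74. Of these 5, 4 hold a GATA word in the strongest CFUE peak. In the erythroid windows, an intron of Bcl11a had 6.98 and 7.54 in ERY, against 17.1 and 17.3 in CFUE (-1.31), and an exon of Stat3 in the Stat5a window 10.1 and 7.54 in ERY, against 18.8 and 16.9 in CFUE (-1.09).

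**Figure D3:**
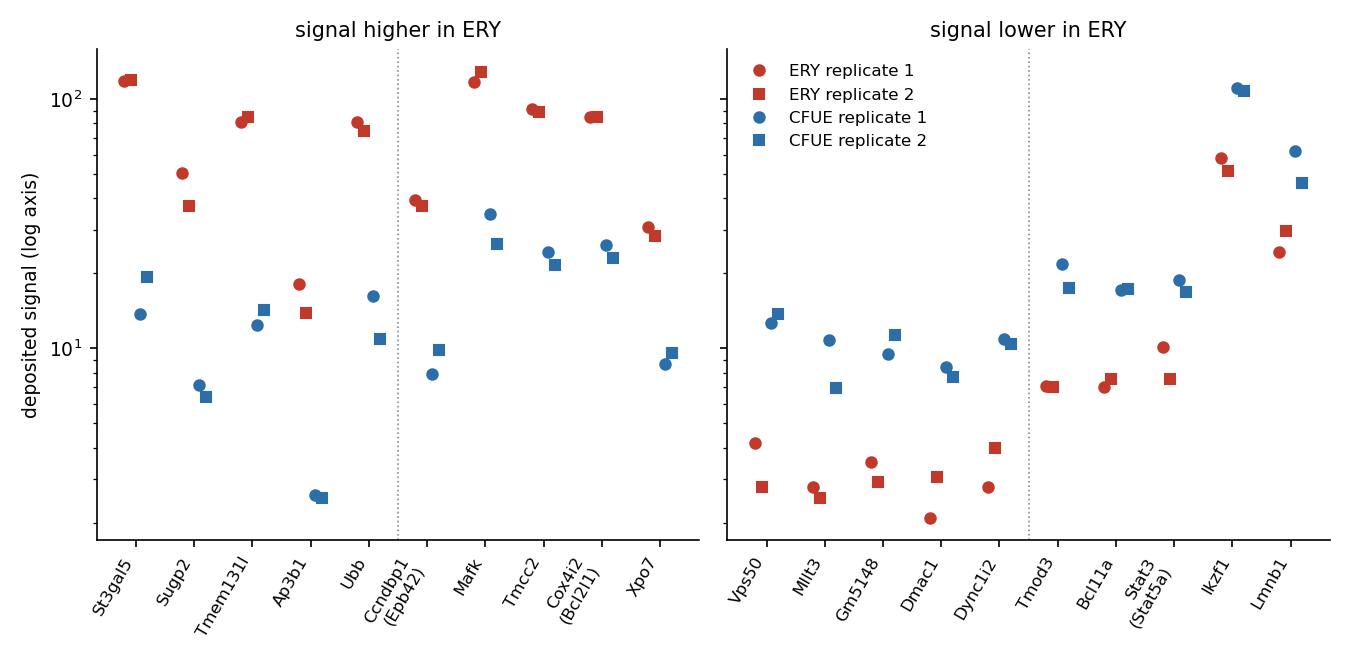
Deposited signal (log axis) of the kept elements with the largest differences, named by the nearest gene with the list gene in parentheses where it differs; red is ERY and blue CFUE, circles replicate 1 and squares replicate 2. Left of each dotted line are the 5 largest of all elements and right of it the 5 largest in windows of erythroid lists; the libraries of the populations do not overlap at any element drawn.

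The sequence of distal elements differed with the direction of the signal. A GATA word lay within the central 200 bp of 26.8% of the distal elements with higher signal in ERY, 55.0% of those with lower signal and 27.9% of those not called, against 19.0% of windows moved by 10 kb from the kept elements. Among changes over 2-fold the shares were 26.2% of rises and 63.0% of falls. KLF words were divided in the same way, 11.4% of rises, 23.3% of falls and 13.2% of elements not called (6.71% in moved windows), as were TAL1-GATA words, 6.97%, 11.8% and 5.28% (0.812% in moved windows). Distal elements with a GATA word had a median log2 difference of -0.09 and those without one 0.15, and those with both a GATA and a KLF word had -0.19, with 26.4% lower, against 0.17 and 5.78% lower for those with neither. These are descriptions over elements, which share the 4 libraries, and no test was made of them.

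Other words went with higher signal. NF-E2 words lay in 11.2% of rises, 4.97% of falls and 5.75% of distal elements not called (3.42% in moved windows). In the lowest quintile of mean signal these shares were 5.12%, 4.22% and 5.39%, so the classes differed little there. In the highest they were 11.9%, 5.02% and 6.17%. FOXO words lay in 5.95% of rises, 2.31% of falls and 2.42% of elements not called (2.59% in moved windows). FOXO3 is known for switching on autophagy genes in erythroblasts. The 32 distal elements with both an NF-E2 and a FOXO word were higher in 50%. The motif of the insulator protein CTCF was nearly absent from falls: 13% of rises, 0.925% of falls and 12.2% of elements not called held it (0.189% in moved windows). By quintile of mean signal, it lay in 25.3% of rises and 3.01% of falls in the lowest and in 1.44% of rises, 1.26% of falls and 2.15% of elements not called in the highest, so rises and falls of the strongest elements differed little in it. GATA words also became more common with signal, so the contrast was read within quintiles of mean signal. The share in falls was 53.0% to 56.8% in every quintile, while the share in rises was 16.6% in the lowest quintile and 47.2% in the highest, where elements not called had 47.7% and falls 54.4%. In the strongest distal elements, rises and falls thus differed little in GATA words.

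**Figure D4:**
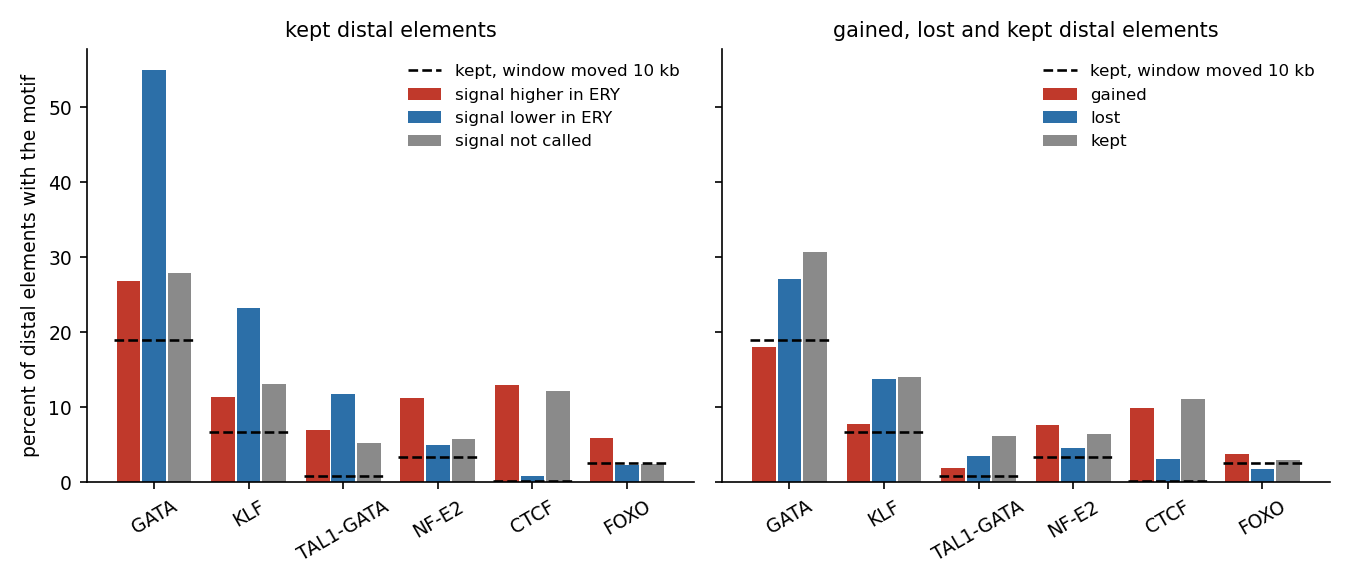
Percent of distal elements with each motif within the central 200 bp; on the left kept elements with signal higher (red), lower (blue) or not called (grey) in ERY relative to CFUE, on the right gained (red), lost (blue) and kept (grey) elements, and dashed lines the share in windows moved by 10 kb from the kept elements. GATA, KLF and TAL1-GATA words are most frequent in elements with lower signal, NF-E2, CTCF and FOXO motifs least frequent there.

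Gained and lost distal elements differed in the same direction but less firmly. GATA words lay in 18.1% of gained, 27.1% of lost and 30.7% of kept distal elements, KLF words in 7.84%, 13.8% and 14.0%, NF-E2 words in 7.65%, 4.65% and 6.51%, CTCF motifs in 9.98%, 3.07% and 11.1%, and FOXO words in 3.76%, 1.74% and 2.96%. Gained elements were at the share of moved windows for GATA words. The difference between gained and lost, -9.03 percentage points for GATA and -5.97 for KLF, depended on calling CFUE from both libraries: for GATA it was 0.03 without CFUE replicate 1 and -0.09 without CFUE replicate 2, and for KLF -1.45 and 0.18. The difference for NF-E2, 3.00 points, was 0.72 without ERY replicate 1 and 1.07 without ERY replicate 2, and that for CTCF, 6.91, was 1.06 and 0.83. In those settings the lost or the gained elements are mostly peaks of a single list. The contrast between rises and falls within kept elements held without each library, at -29.7 to -24.4 points for GATA. Repeats covered over 50% of 12.8% of gained, 10.1% of lost and 7.57% of kept distal elements, against 22.1% of moved windows.

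At kept promoters the divided words were others. The E2F word (TTCCCGCC), bound by the E2F factors of the cell cycle, lay in 1.44% of promoters with higher signal in ERY, 5.34% of those with lower signal and 1.92% of those not called. Among the 379 promoters with the word, 7.39% were higher and 25.3% lower. The NF-Y word (GCCAAT) lay in 15.4%, 9.84% and 9.25%, the FOXO word in 4.06%, 1.00% and 1.85%, the NF-E2 word in 4.57%, 1.67% and 2.57%, and KLF words in 23.7%, 33.4% and 24.9%. Over all kept promoters the shares were 2.22% for E2F, 10.0% for NF-Y, 2.01% for FOXO, 2.71% for NF-E2 and 25.7% for KLF. The GATA word lay in 10.2% of kept promoters, below the 18.2% of windows moved by 10 kb.

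The other populations of the series place these elements in hematopoiesis. They are LSK (stem and early progenitor cells), common myeloid (CMP), granulocyte monocyte (GMP) and megakaryocyte erythroid (MEP) progenitors, megakaryocyte progenitors (CFUMK), immature megakaryocytes (iMK), monocytes (MON) and neutrophils (NEU), all from C57BL6 mice, and the lines G1E, which lacks GATA1, and G1E-ER4+E2, a G1E clone in which estradiol activates a GATA1 and estrogen receptor fusion. Of the kept distal elements with higher signal in ERY, 55.2% were called in LSK, 75.3% in CMP, 84.2% in MEP, 49.2% in MON and 48.0% in NEU. Of those with lower signal, 24.9% were called in LSK, 61.0% in CMP, 89.8% in MEP, 16.3% in MON and 14.5% in NEU. Elements with falling signal were thus mostly called in MEP but seldom in mature myeloid cells, and those with rising signal were called more often in LSK, CMP, MON and NEU. In CFUMK the shares were close, 86.3% of rises and 85.0% of falls. Gained distal elements were likewise called more often than lost ones in LSK (28.4% and 17.4%), CMP (42.6% and 28.5%), iMK (38.6% and 22.2%) and MON (22.8% and 12.5%), and about equally in MEP (43.7% and 40.4%). In the lines the order was not the same: G1E was called at 34.4% of rises and 43.0% of falls, and G1E-ER4+E2 at 56.0% and 53.0%. These lists differ in depth and number of peaks, and no test was made.

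**Figure D5:**
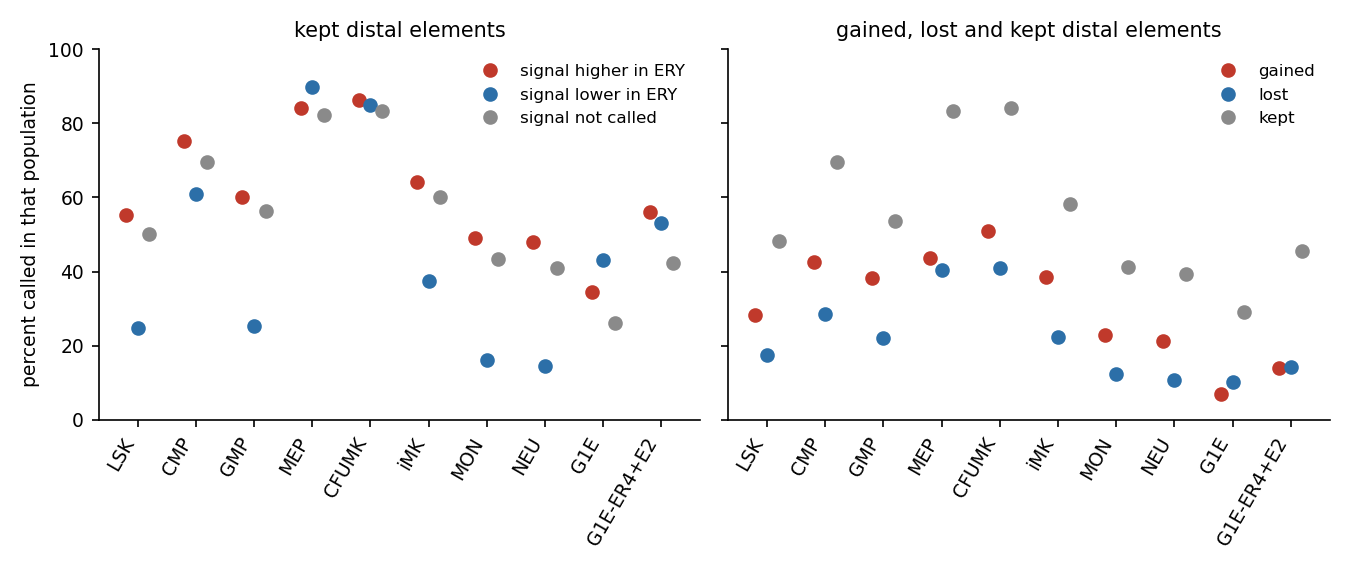
Percent of distal elements (y axis) that were also called in each of the other 10 populations (x axis); on the left kept elements with signal higher (red), lower (blue) or not called (grey) in ERY relative to CFUE, on the right gained (red), lost (blue) and kept (grey) elements. Elements with lower signal in ERY lie well below the others in LSK, GMP, iMK, MON and NEU and above them in MEP.

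Along the path MEP, CFUE, ERY, 28314 elements were called in all 3 populations, 3313 in MEP and CFUE but not ERY, 4723 in CFUE alone, 4622 in CFUE and ERY but not MEP, 4916 in ERY alone and 3684 in MEP and ERY but not CFUE. Another 40613 were called in MEP alone. Of the gained elements, 39.2% were called in no other population of the series, and of the lost 44.3%, against 6.49% of the kept. Without a peak in either library of the other population these shares were 52.2% and 56.7%.

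By gene window, few genes differed in the number of peaks. Of 17018 protein-coding genes tested, limma called 118 with more peaks in ERY (0.693%) and 178 with fewer (1.05%), together 1.74%, at an adjusted p under 0.05, and 1752 had an unadjusted p under 0.05. Hoxb6 led the rises with 9 and 4 peaks in ERY, against 2 and 0 in CFUE (2.20 ± 0.35 on the log2 scale of peaks per 100000 with a prior of 1 peak, adjusted p = 1.7e-04), with its neighbours Hoxb4 (3 and 3 in ERY, 0 and 0 in CFUE) and Hoxb5 (5 and 3 in ERY, 1 and 0 in CFUE). These are homeobox genes of early progenitors, their windows overlap, and shared peaks are counted in each. The other leading rises were Sccpdh, Ly6g, Jdp2, Tcl1b5, Tcl1b2, Tcl1b1 and Aldh5a1, with 2 to 9 peaks in each ERY library and 0 to 3 in each CFUE library. The leading falls were Klri1 (0 and 0 in ERY, 13 and 4 in CFUE), Traf3ip2, Pcdh15, Adgrb3, Sema6d, Lrrc6, Gria4, Setbp1, Usp29 and Fat4, with 0 or 1 peak in ERY and 2 to 17 in CFUE.

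The falls were long genes with low peaks. Genes with fewer peaks in ERY had a median length of 123 kb, against 20.8 kb for those with more and 22.3 kb for all tested, and CFUE replicate 1 held 1711 of their peaks and CFUE replicate 2 held 900, against 264 and 192 in ERY. Of the 178, 80 had no element called in CFUE at all. Without CFUE replicate 1 there were 79 falls, and without ERY replicate 1 there were 52 and without ERY replicate 2 there were 71 rises. In a fit of the 4 ERY and CFUE libraries alone, 73 of the 296 genes were called again. With the 52720 highest peaks of every list, 6 of the 296 genes were called again and 230 had a difference of 0. The window calls thus rest on the weaker peaks of the longer lists. Of the 367 genes on the lists, 5 passed: Hoxb4 with more peaks, and Fli1 (5 and 2 in ERY, 11 and 6 in CFUE), an ETS factor of megakaryocytes and progenitors, Slc2a1 (0 and 3 in ERY, 6 and 5 in CFUE), the glucose transporter GLUT1, Treml1 (0 and 1 in ERY, 7 and 2 in CFUE), a platelet receptor, and Vim (1 and 0 in ERY, 12 and 2 in CFUE), the intermediate filament vimentin, with fewer. The Cd44 window did not pass (-0.17, limma adjusted p = 0.96).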

How the data were processed

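ATAC-seq peak lists of 2 ERY and 2 CFUE libraries were compared, with the other 20 lists of the series as context. The authors cut reads to 30 bases, mapped them on mm10 using Bowtie 0.12.8, dropped the mitochondrial genome and unplaced contigs (SAMtools 1.6 in the submitters' processing notes) and ran HOMER on every library separately. The value used here was deposited without a name. Its values are whole multiples of a step that differs between lists, so it was read as a signal, a tag count scaled by the authors to a common total. A further score in the lists was not used. Read totals are not used here, and depth was read from the step as a percentage of the deepest list.

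Peaks of both libraries that overlapped by 1 bp or more made an element, and elements were merged over the 12 populations. Positions and gene windows (gene body and 20 kb on each side) come from GENCODE M21 on GRCm38.p6, and all peak ends fell within its chromosomes. A promoter element has its centre within 1 kb of a transcript start. Signal was centred per library on its median log2 over the 32936 kept elements and fitted over 4 libraries. Window counts (21911 genes, of which 17018 had a mean of 3 or more peaks) were fitted over 24 libraries as log2 peaks per 100000 with a prior of 1 peak. Both fits used limma 3.58.1 in R 4.3.3 with trend and robust variance, two-sided, at a Benjamini-Hochberg adjusted p of 0.05, and were tested on simulated data. Motifs were searched as words on both strands, and CTCF as a consensus. Other steps used Python 3.11.15.

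Named genes are the 10 largest rises and falls of windows whose libraries do not overlap, list genes past the threshold, up to 4 genes per list with the most all-or-none distal gains or losses, and Cd44. Named elements are the 6 strongest all-or-none distal gains and losses and the 5 largest rises and falls of signal, over all and in windows of erythroid lists. The 17 lists hold 367 genes and were written from general knowledge. The members and lists were chosen with earlier results of these data known. Alternatives (calling rule, promoter and window size, normalisation, variance trend, top peaks, leaving out a library, single pairs of libraries, a replicate block) are given in the closing section. No list of artefact regions was applied.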

Additional observations from a re-analysis of the deposited data

How the results depend on the processing

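Presence depends on the calling rule. Called in either library, 53010 elements were gained, 76893 lost and 38.3% of CFUE elements kept, and with no library of the other population 4395 were gained and 4308 lost. Within single pairs of libraries these values were 27384, 58562 and 40.5% (library numbers 846 and 845) and 38851, 31154 and 55.3% (854 and 853), and without a library in turn 5841 to 41893, 5958 to 62422 and 36.5% to 85.5%. The promoter share with starts within 500 bp or 2.5 kb was 43.7% or 61.1% of kept, 13.4% or 34.0% of gained and 22.1% or 41.9% of lost elements. It was 34.3% of the lost with equal numbers of top peaks, and 16.7% of gained and 26.3% of lost with no library of the other population. Without a library in turn it was 49.8% to 51.3%, 13.6% to 19.9% and 14.7% to 30.5%.

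For motif shares, gained minus lost was -9.95 (GATA), -6.75 (KLF) and 7.61 (CTCF) points in whole elements, and -6.50 (GATA), 3.77 (NF-E2) and 5.11 (CTCF) with no library of the other population. Without a library in turn it was -9.98 to 0.03 (GATA), -6.69 to 0.18 (KLF), 0.72 to 3.49 (NF-E2) and 0.83 to 8.27 (CTCF), and it reversed for GATA without CFUE replicate 1 (0.0302) and for KLF without CFUE replicate 2 (0.178). Rises minus falls in kept elements, a comparison chosen after seeing the data, was -28.2 (GATA), -11.9 (KLF), 6.24 (NF-E2), 12 (CTCF) and 3.64 (FOXO). It was -33.4, -15.9 and 14.4 for GATA, KLF and CTCF in whole elements, -32.3 and 9.53 for GATA and NF-E2 without the variance trend, and -29.7 to -24.4, -12 to -9.40, 5.25 to 8.33, 8.15 to 13 and 3.26 to 4.58 without a library in turn.

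Kept elements with higher and lower signal numbered 1032 and 907 without the variance trend and 2378 to 4044 and 2059 to 3249 without a library in turn, and 1680 were lower without centring. Of the 7927 calls, 1888 were called again without the trend, 4648 without centring, 7096 after quantile normalisation and 4419 to 5956 without a library in turn. Counts of higher or lower elements per gene list moved by over 1.5 times in 77 of 238 alternatives. The named elements, chosen for the largest differences, stayed past the threshold in 174 of 174.

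Genes with more peaks numbered 76 and 78 with flanks of 5 and 50 kb, 25 in a fit of 4 libraries, 55 per 100000 promoter peaks, 67 with equal numbers of top peaks and 52 to 102 without a library in turn. Genes with fewer numbered 72 in a fit of 4 libraries, 34 with top peaks, 98 with a prior of 3 peaks and 79 to 224 without a library in turn. Named windows lost their call in 89 of 304 alternatives. Replicate numbers were given in accession order and pair no libraries, but library numbers run over 2 ranges in the same order of populations, which the labels do not call batches. Deviations of ERY and CFUE within these ranges correlated with r = 0.03 for signal and -0.15 for windows, and over 7 populations with -0.17 to 0.25 for windows. With the range as a replicate block, chosen after seeing the data, 4984 elements were higher and 4087 lower, and 108 windows had more and 168 fewer peaks, with Slc2a1 and Treml1 no longer past the threshold. The cause of these shifts was not tested, apart from single-library calls, which by construction count every peak of 1 list. Depth differs by list, and sites missed for lack of reads are not known.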
